A study of Mirounga angustirostris with 8 samples.

Results

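The collagen genes of northern elephant seal (NES, Mirounga angustirostris) skeletal muscle were taken as the rows of the gene count table whose symbol is COL, a number, A and a number, with at least 80 reads summed over the 8 libraries. Of 24342 named rows, 43 had such a symbol and 31 reached 80 reads. The members with the fewest reads were COL6A5 with 138, COL2A1 with 143 and COL9A1 with 143, and the rows just below were COL19A1 with 64, COL11A2 with 62 and COL23A1 with 59. The 31 members fell into 8 fibrillar collagens, 6 basement-membrane collagens of type IV, 5 collagens of type VI, 6 FACIT collagens (chains that sit on the surface of fibrils), 2 multiplexins (COL15A1 and COL18A1), 1 transmembrane collagen (COL13A1) and 3 others (COL7A1, COL8A1 and COL26A1). The edgeR test kept 29 of the 31 after a filter on low counts, leaving out COL2A1 and COL9A1.

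Longissimus dorsi, a muscle along the back, was biopsied in wild adult female NES that fast on land with reduced activity while they replace skin and hair. The 4 pre-molt libraries came from seals 5572, 5842, 6762 and C497, sampled within 5 days of coming ashore, and the 4 post-molt libraries from seals 4448, 5572, 9678 and X410, sampled on average 34 days later. Seals of both groups were sedated, and biopsies were cut through the blubber. Seal 5572 alone contributed to both groups, which otherwise consist of different animals. Each group held the 4 samples with the most uniquely aligned reads. The paper made this choice because low RNA quality had led to poor sequencing of some samples. Among the 8 libraries, the paper lists the smallest share of uniquely mapped read pairs for post-molt 9678 and the next smallest for pre-molt 5842. No sample was taken from a seal that was ashore without molting, so time, fasting, reduced activity and molt cannot be told apart.

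Collagens are secreted proteins whose alpha chains wind around each other into a rope-like helix. In skeletal muscle, fibrillar types I, III and V build the connective tissue sheaths around fibers and bundles, type IV forms the sheet-like network of the basement membrane around each fiber and capillary, and type VI forms beaded filaments that tie the basement membrane to the surrounding fibrils. Fibroblasts of the connective tissue are the best known source of fibrillar and type VI chains, whereas muscle fibers, endothelial cells and pericytes also make basement membrane chains.

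Total counts per library were 37900665 to 56143099 in the pre-molt group and 30771344 to 61222301 in the post-molt group, and reads from collagen genes made up 0.0639 to 0.196% of them. Libraries differed in how many genes had a read, from 12678 in post-molt 9678 to 18047 in post-molt 5572. Few genes lay between 6 and 20 reads in post-molt 4448 (135 genes) and post-molt 9678 (112 genes), against 524 to 1951 genes in the other 6 libraries. Of the 31 collagen genes, 6 had no read in post-molt 4448 and 7 had none in post-molt 9678, against 0 to 4 in the other 6 libraries, and 21 had a read in all 8. A count of 0 allows up to 3 reads, between 0.0430 and 0.0968 CPM (read counts scaled to a common library size, here always with TMM factors) depending on the library, and that limit covers counting error only. Markers of skeletal muscle fibers summed to 172969 to 297703 CPM in every library, and keratinocyte markers summed to 4.14 to 11.7 CPM, of which TP63 gave 2.85 to 11.03 CPM. KRT10, DSG1 and KRT15 had no read in any library, and KRT5 had 68 reads in post-molt 9678, 2 in post-molt 5572 and none elsewhere.

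Collagen transcripts were mostly less abundant in the post-molt libraries, but none passed the test after adjustment. Of the 29 tested, 23 had a log2 fold change (post-molt over pre-molt) below 0, against 53.6% of all 14315 genes tested, and the median was -0.69 against -0.04 over all genes. edgeR's quasi-likelihood test with Benjamini-Hochberg adjustment over all genes called 0 collagens lower and 0 higher, against 0.133% of all genes called lower and 0.217% called higher. At an unadjusted p below 0.05, 9 collagens were lower and 0 higher, where 6.22% of all genes were lower and 5.20% higher. DESeq2 called 6 collagens lower and 0 higher at an adjusted p below 0.05 (COL1A2, COL4A3, COL6A1, COL6A2, COL14A1 and COL15A1), against 3.16% of the genes it adjusted called lower and 3.35% called higher, and it gave no adjusted p for 9 of the 29. limma-voom called 0 lower and 0 higher, against 0.272% and 0.384% of all genes. At its unadjusted p below 0.05, 10 collagens were lower, against 8.21% of all genes. In 6 collagens every post-molt library lay below every pre-molt library (COL1A1, COL4A3, COL6A2, COL6A5, COL14A1 and COL15A1), and in 0 was the reverse true, against 5.11% and 4.04% of all genes. Within seal 5572, 22 of the 29 were lower post-molt than pre-molt, against 49.6% of all genes tested. In whole biopsies, fewer cells of a type and less RNA per cell cannot be told apart.

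Pre-molt 5842 held the highest value of the 8 libraries for 17 of the 29 tested collagens, against 20.4% of all tested genes. With pre-molt 5842 and post-molt 9678 both left out, 7 collagens were lower at an unadjusted p below 0.05, against 4.30% of all genes then tested. These were 6 of the 9 above and COL4A4, while COL3A1, COL6A1 and COL6A3 were no longer among them. With the 3 libraries with the fewest genes detected left out (seal 5842 of the pre-molt group and seals 4448 and 9678 of the post-molt group), which was decided once the data had been seen, 6 were lower at an unadjusted p (COL1A1, COL4A3, COL4A4, COL6A2, COL14A1 and COL15A1), against 3.81%.

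**Figure D1:**
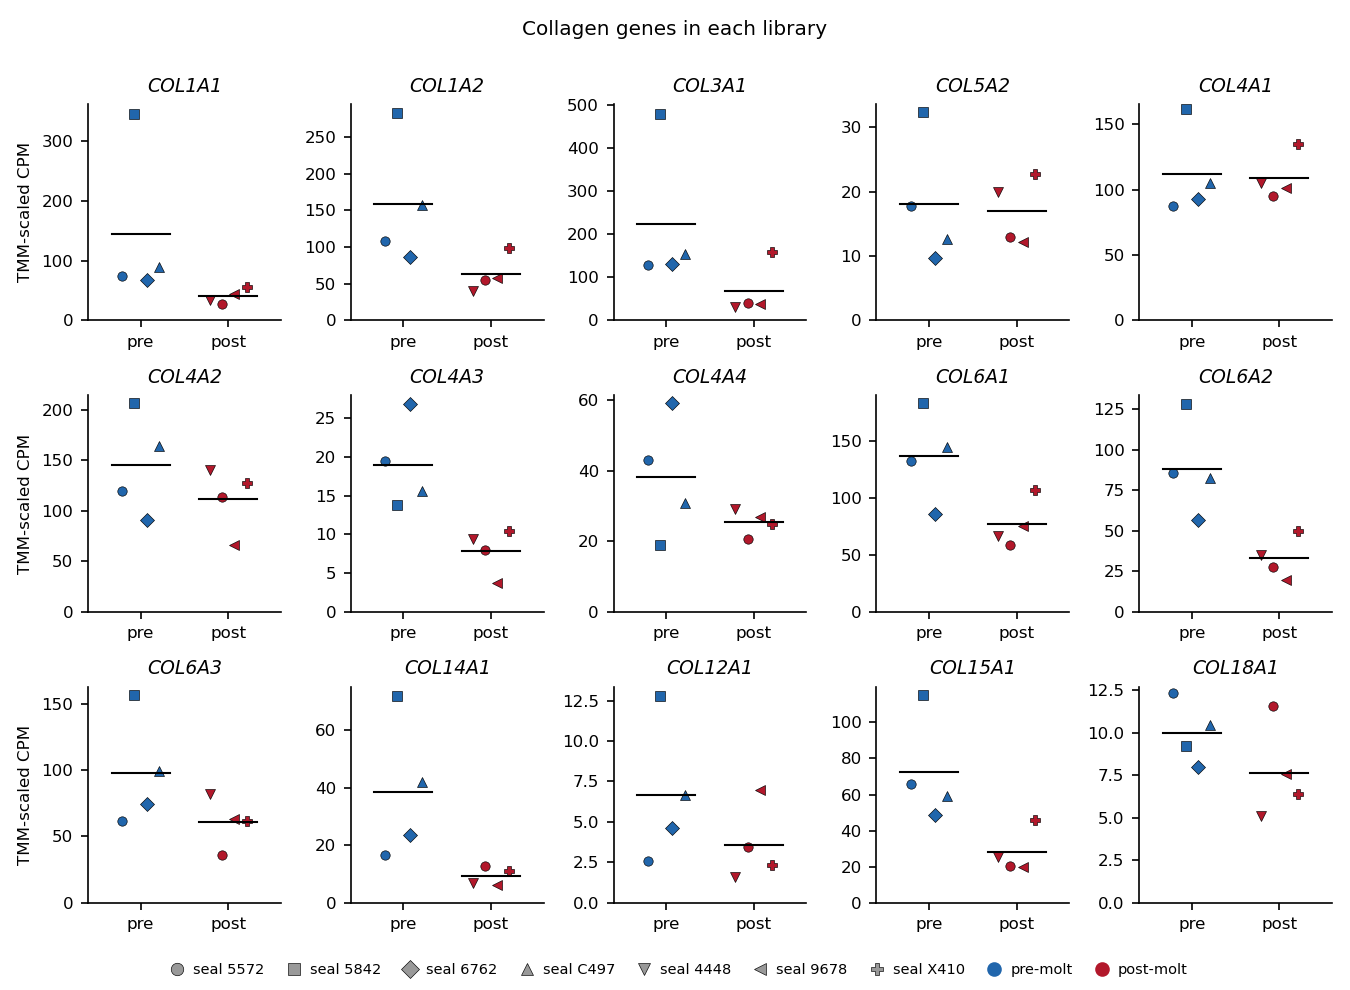
Abundance of the main collagen genes in each library, in TMM-scaled CPM on linear axes from 0, with a point for each seal (blue pre-molt, red post-molt) and a line at the mean of each group. COL1A1, COL4A3, COL6A2, COL14A1 and COL15A1 show no overlap between the groups, while COL4A1 and COL5A2 overlap almost fully, and pre-molt 5842 is the highest point in most panels.

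Among the fibrillar collagens, the chains of types I and III had lower post-molt means, and the type V chains overlapped between the groups. COL1A1, the chain that makes up most of type I collagen, was at 73.9, 345, 66.6 and 88.5 CPM in pre-molt 5572, 5842, 6762 and C497, and at 34.9, 27.1, 44.9 and 55.3 CPM in post-molt 4448, 5572, 9678 and X410. The groups did not overlap, and pre-molt 5842 stood far above the other 7 libraries. The log2 fold change was -1.82 ± 0.49 (SE, n = 4 and 4; edgeR adjusted p = 0.123), and -0.89 without pre-molt 5842, and DESeq2 gave no p for this gene.

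COL1A2, the partner chain in type I collagen, was at 108, 283, 86.6 and 158 CPM pre-molt and at 39.6, 55.8, 58.0 and 99.4 CPM post-molt in the same order of seals. Post-molt X410 overlapped the lowest pre-molt library, 6762. The log2 fold change was -1.33 ± 0.37 (edgeR adjusted p = 0.143, DESeq2 adjusted p = 0.0148). COL3A1, the chain of type III collagen in the reticular fibers of the endomysium, was at 128, 479, 131 and 154 CPM pre-molt and at 31.6, 40.6, 38.3 and 159 CPM post-molt. The 3 other post-molt libraries were below every pre-molt library, whereas X410 lay within the pre-molt range, and the log2 fold change was -1.73 ± 0.57 (edgeR adjusted p = 0.214), -1.0 without pre-molt 5842 and -2.59 without post-molt X410.

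Type V collagen co-assembles with type I and limits fibril diameter. COL5A2 was at 17.7, 32.4, 9.68 and 12.6 CPM pre-molt and at 19.99, 12.9, 12.1 and 22.8 CPM post-molt. The groups overlapped across their whole range, and the log2 fold change was -0.09 ± 0.37 with a 95% interval from -0.89 to 0.71 (edgeR adjusted p = 0.963). COL5A1 had means of 18.2 ± 8.87 CPM pre-molt and 12.1 ± 4.55 CPM post-molt (SD, n = 4) and a log2 fold change of -0.59 ± 0.37. COL5A3, a less widespread type V chain singled out after its values were seen, was at 18.0, 10.1, 8.62 and 8.51 CPM pre-molt and at 28.8, 12.6, 21.7 and 10.7 CPM post-molt. All post-molt libraries were above 3 of the 4 pre-molt libraries, and the log2 fold change was 0.71 ± 0.36 (edgeR adjusted p = 0.519). COL27A1 had a log2 fold change of -0.28 ± 0.63, and COL2A1, the cartilage fibrillar collagen, had 0 reads in 3 of the 8 libraries and at most 88.

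**Figure D2:**
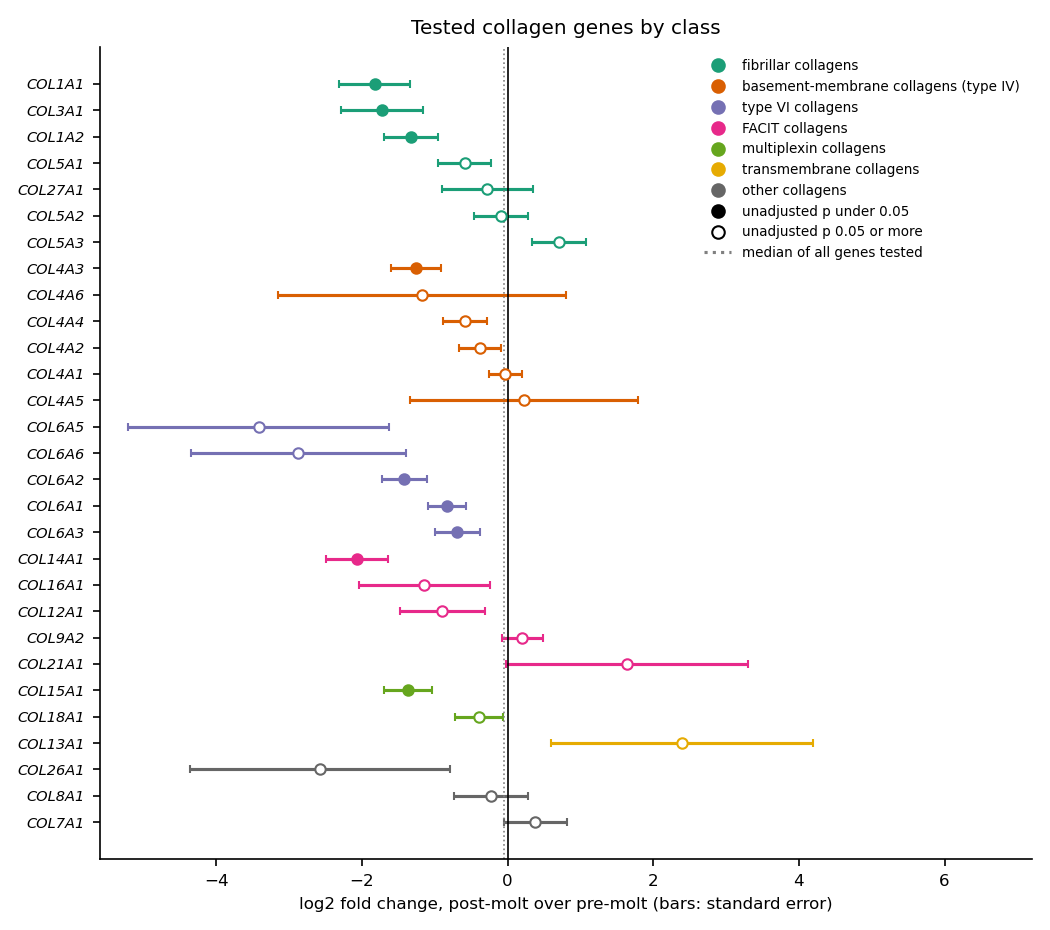
log2 fold change (post-molt over pre-molt) of the 29 tested collagen genes coloured by class, with bars for the standard error, a solid line at 0, a dotted line at the median of all genes tested (-0.04), and filled points where the unadjusted p was below 0.05. The 9 filled points lie left of 0, and the longest bars belong to genes with few reads such as COL13A1 and COL6A5.

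The basement-membrane collagens differed among themselves. COL4A1 and COL4A2, which together form the network found in nearly all basement membranes, overlapped between the groups. COL4A1 was at 87.3, 162, 92.5 and 105 CPM pre-molt and at 105, 95.3, 101 and 135 CPM post-molt, with a log2 fold change of -0.03 ± 0.23 and a 95% interval from -0.52 to 0.46 (edgeR adjusted p = 0.978). COL4A2 was at 119.6, 207, 90.7 and 164 CPM pre-molt and at 139.9, 113, 65.8 and 127 CPM post-molt, with a log2 fold change of -0.38 ± 0.29 (edgeR adjusted p = 0.706). Apart from pre-molt 5842, COL4A1 lay between 87.3 and 135 CPM in every library.

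COL4A3 and COL4A4 encode chains of a more restricted network, best known from kidney filters. COL4A3 was at 19.5, 13.7, 26.8 and 15.6 CPM pre-molt and at 9.40, 8.0, 3.71 and 10.4 CPM post-molt. All post-molt libraries were below all pre-molt libraries, pre-molt 5842 was here the lowest of its group, and the log2 fold change was -1.26 ± 0.35 (edgeR adjusted p = 0.137, DESeq2 adjusted p = 0.0175). COL4A4 was at 43.1, 19.0, 59.3 and 30.85 CPM pre-molt and at 29.1, 20.5, 26.8 and 24.8 CPM post-molt, with a log2 fold change of -0.59 ± 0.30 (edgeR adjusted p = 0.512). Pre-molt 5842 lay below all post-molt libraries and the other pre-molt libraries were above them. COL4A5 and COL4A6, which join these networks, averaged 0.263 to 0.592 CPM in either group, and the 95% intervals of their log2 fold changes ran from -3.17 to 3.62 and from -5.47 to 3.11.

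All 5 type VI collagens had negative log2 fold changes, with a median of -1.42. Of these, 3 were lower at an unadjusted p below 0.05, where 53.6% of all genes were below 0 and 6.22% lower at that p. The median is the value of COL6A2. Below it lay COL6A5 (-3.42) and COL6A6 (-2.87), without a read in post-molt 4448 and 9678, and above it COL6A1 (-0.84) and COL6A3 (-0.69). COL6A1, COL6A2 and COL6A3 encode the chains that assemble into the common type VI filament, and inherited defects in them cause muscle disease in humans. COL6A2 was at 85.7, 128, 56.7 and 82.2 CPM pre-molt and at 34.8, 27.6, 19.4 and 49.99 CPM post-molt. The groups did not overlap, and the log2 fold change was -1.42 ± 0.31 (edgeR adjusted p = 0.0678, DESeq2 adjusted p = 0.00132).

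COL6A1 was at 133, 184, 86.4 and 145 CPM pre-molt and at 66.4, 58.5, 75.1 and 107 CPM post-molt. Post-molt X410 was above pre-molt 6762, the only overlap, and the log2 fold change was -0.84 ± 0.26 (edgeR adjusted p = 0.186, DESeq2 adjusted p = 0.0465). COL6A3 was at 61.6, 157, 74.4 and 99.1 CPM pre-molt and at 81.7, 36.4, 62.8 and 61.5 CPM post-molt. The groups overlapped in the range from 61.6 to 81.7 CPM, and the log2 fold change was -0.69 ± 0.31 (edgeR adjusted p = 0.410), with an unadjusted p below 0.05 in 3 of the 8 fits that left out 1 library.

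COL6A6 and COL6A5 encode chains that can take the place of the COL6A3 chain. COL6A6 had 25, 288, 173 and 251 reads in pre-molt 5572, 5842, 6762 and C497 and 0, 8, 0 and 105 reads in post-molt 4448, 5572, 9678 and X410, with a log2 fold change of -2.87 ± 1.47 (edgeR adjusted p = 0.514). COL6A5 had 16, 39, 29 and 42 reads pre-molt and 0, 2, 0 and 10 post-molt, without overlap in CPM (edgeR adjusted p = 0.530). Both genes were at 0 in post-molt 4448 and 9678, the libraries with few genes between 6 and 20 reads. The part of that difference between libraries in these values was not tested.

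Of the FACIT collagens, COL14A1 differed most between the groups and the others overlapped. COL14A1, which binds type I fibrils and the proteoglycan decorin, was at 16.6, 71.9, 23.7 and 42.0 CPM pre-molt and at 6.85, 12.9, 6.10 and 10.9 CPM post-molt. No post-molt library reached the lowest pre-molt library, and the log2 fold change of -2.07 ± 0.43 had the smallest p of all collagens (edgeR adjusted p = 0.0584, DESeq2 adjusted p = 0.000380). COL12A1, a related chain on fibrils of tendon and muscle sheaths, was at 2.59, 12.8, 4.65 and 6.68 CPM pre-molt and at 1.59, 3.44, 7.0 and 2.32 CPM post-molt.

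The groups overlapped for COL12A1, with post-molt 9678 above 3 pre-molt libraries and a log2 fold change of -0.90 ± 0.58 (edgeR adjusted p = 0.642). COL16A1, a minor FACIT chain, was at 9.01, 15.9, 4.08 and 6.93 CPM pre-molt and at 5.46, 6.64, 0 and 4.12 CPM post-molt, with a log2 fold change of -1.14 ± 0.90 (edgeR adjusted p = 0.721). COL9A2, a chain of the cartilage type IX collagen, was at 22.7, 28.8, 14.9 and 14.8 CPM pre-molt and at 21.9, 24.2, 30.9 and 16.3 CPM post-molt, with a log2 fold change of 0.20 ± 0.28 and a 95% interval from -0.41 to 0.81. Both groups of COL9A2 covered nearly the same range. COL21A1 averaged 0.331 CPM pre-molt and 1.04 CPM post-molt, and COL9A1 had reads in only 4 of the 8 libraries.

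The multiplexins release antiangiogenic fragments from their ends and lie at the outer face of basement membranes. COL15A1, known from the basement membrane zone of muscle and capillaries, was at 65.7, 115, 48.9 and 59.4 CPM pre-molt and at 25.6, 20.6, 19.8 and 45.7 CPM post-molt. All post-molt libraries were below the lowest pre-molt library, and the log2 fold change was -1.37 ± 0.33 (edgeR adjusted p = 0.0830, DESeq2 adjusted p = 0.00421). COL18A1, the source of endostatin, was at 12.3, 9.22, 8.0 and 10.4 CPM pre-molt and at 5.12, 11.6, 7.55 and 6.38 CPM post-molt, overlapping in post-molt 5572, with a log2 fold change of -0.39 ± 0.33 (edgeR adjusted p = 0.752).

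The remaining members gave no separation. COL7A1, the anchoring fibril collagen of skin, averaged 16.8 ± 10.3 CPM pre-molt and 21.9 ± 10.9 CPM post-molt, and COL8A1, a short-chain collagen of vessel walls, averaged 4.18 ± 1.93 and 3.57 ± 1.01 CPM. COL13A1, a transmembrane collagen of the neuromuscular junction, and COL26A1 each had 0 reads in at least 2 libraries, with log2 fold changes of 2.39 ± 1.80 and -2.57 ± 1.79. For COL13A1 the post-molt mean rested on 147 reads in post-molt 9678, against 0 to 36 in the other 7 libraries.

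Leaving out each library in turn left 7 collagens lower at an unadjusted p below 0.05 in all 8 fits: COL1A1, COL1A2, COL4A3, COL6A1, COL6A2, COL14A1 and COL15A1. In each single fit 4.56 to 6.07% of all genes were lower at that p, and the share of all genes lower in all 8 was not computed. The fits share most of their libraries and are not independent. COL3A1 was lower in 7 of the 8 fits. Without pre-molt 5842 the log2 fold change was -0.87 for COL1A2, -0.16 for COL5A1, -0.14 for COL4A2, -0.35 for COL6A3, -0.36 for COL12A1 and -0.69 for COL16A1, each nearer 0 than with it. COL12A1 was at -1.44 without post-molt 9678, COL4A4 at -0.29 without pre-molt 6762 and COL6A6 at -5.85 without post-molt X410. The median log2 fold change was -0.59 in fibrillar collagens, -0.49 in type IV, -1.42 in type VI, -0.90 in FACIT collagens and -0.88 in the multiplexins, with 3, 1, 3, 1 and 1 members lower at an unadjusted p. By summed CPM, the log2 ratio of the group means (post-molt over pre-molt) was -1.38 in fibrillar collagens, -0.31 in type IV and -0.94 in type VI. It was -0.85 in FACIT collagens and -1.21 in the multiplexins. The order of the classes thus depended on the measure, and no test of one class against another was made.

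Added up within each library, the classes differed in how far the groups stood apart. The fibrillar collagens summed to 367, 1182, 319 and 439 CPM pre-molt and to 176, 162, 184 and 365 CPM post-molt, overlapping through post-molt X410. Type IV summed to 269.9, 402, 271 and 317 CPM pre-molt and to 283, 239, 198 and 298 CPM post-molt, with broad overlap. Type VI summed to 281, 479, 221 and 331 CPM pre-molt and to 183, 123, 157 and 221 CPM post-molt. The highest post-molt library (220.7 CPM) was just below the lowest pre-molt library (221.3 CPM).

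FACIT collagens summed to 48.2 to 130.4 CPM pre-molt and 34.6 to 47.7 CPM post-molt, and the multiplexins to 56.9 to 124 CPM and 27.4 to 52.1 CPM. As a share of the collagen reads of a library, type IV made up 24.9, 17.2, 28.8 and 25.5% pre-molt and 37.8, 37.6, 31.2 and 30.2% post-molt, so every post-molt library was higher. Fibrillar collagens made up 38.4 ± 8.17% pre-molt and 28.7 ± 5.92% post-molt (SD, n = 4), with overlap, and type VI made up 24.1 ± 2.73% and 22.7 ± 2.5%. These shares add to 100% within a library, so a higher share of type IV goes with lower shares of other classes, while the type IV sum itself was 315 ± 62.2 CPM pre-molt and 255 ± 45.4 CPM post-molt.

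**Figure D3:**
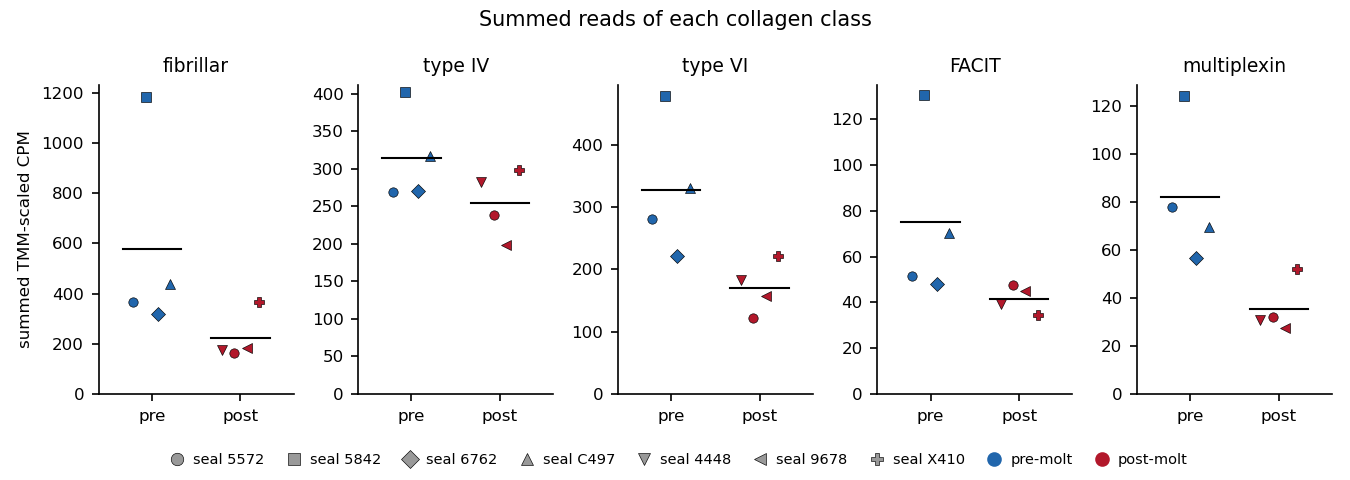
Summed TMM-scaled CPM of each collagen class in each of the 8 libraries (a point for each seal, blue pre-molt and red post-molt) with a line at the mean of each group, on linear axes from 0. The fibrillar and type IV sums overlap between the groups, and the type VI, FACIT and multiplexin sums do not, with only a narrow gap for type VI and FACIT. Pre-molt 5842 is the highest point in the fibrillar, type IV, type VI, FACIT and multiplexin classes.

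Ratios of collagen reads within a library do not depend on how libraries are scaled, and 9 were tested with a two-sided exact permutation test of the log2 ratio, which with 4 libraries a group cannot give a p below 0.0286. A further planned ratio, COL4A5 over COL4A1, was left out because COL4A5 had 0 reads in post-molt 4448. With a prior count of 2 its exact permutation p was 0.971. In 4 of the 9 the groups did not overlap and p was 0.0286 (0.0643 after Benjamini-Hochberg adjustment over the 9). For COL6A1 over COL6A2, the log2 ratio was 0.65 ± 0.12 pre-molt and 1.27 ± 0.46 post-molt (SD, n = 4). These are genes whose chains enter the same filament, and the ratio of reads ran from 1.44 to 1.76 in the pre-molt libraries and from 1.91 to 3.87 post-molt.

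The log2 ratio of COL4A3 to COL4A4 was -0.94 ± 0.32 pre-molt and -1.77 ± 0.74 post-molt. For COL5A1 over COL5A2 it was 0.06 ± 0.32 and -0.53 ± 0.25, and for COL14A1 over COL12A1 it was 2.54 ± 0.15 and 1.51 ± 1.15. Post-molt 9678 gave the most extreme ratio of the 8 libraries in all 4 pairs, and without it the differences in log2 ratio were 0.39 for COL6A1 over COL6A2, -0.48 for COL4A3 over COL4A4, -0.48 for COL5A1 over COL5A2 and -0.46 for COL14A1 over COL12A1, against 0.62, -0.84, -0.58 and -1.03 with it. In the other 5 pairs the groups overlapped, with exact permutation p = 0.457 for COL1A1 over COL1A2, 0.457 for COL1A1 over COL3A1, 0.229 for COL4A1 over COL4A2, 0.686 for COL6A3 over COL6A1 and 0.200 for COL15A1 over COL18A1. The type I chains, which assemble in a fixed proportion, had a difference in log2 ratio of -0.24 between the groups, which was -0.02 without pre-molt 5842 and -0.40 without pre-molt C497.

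**Figure D4:**
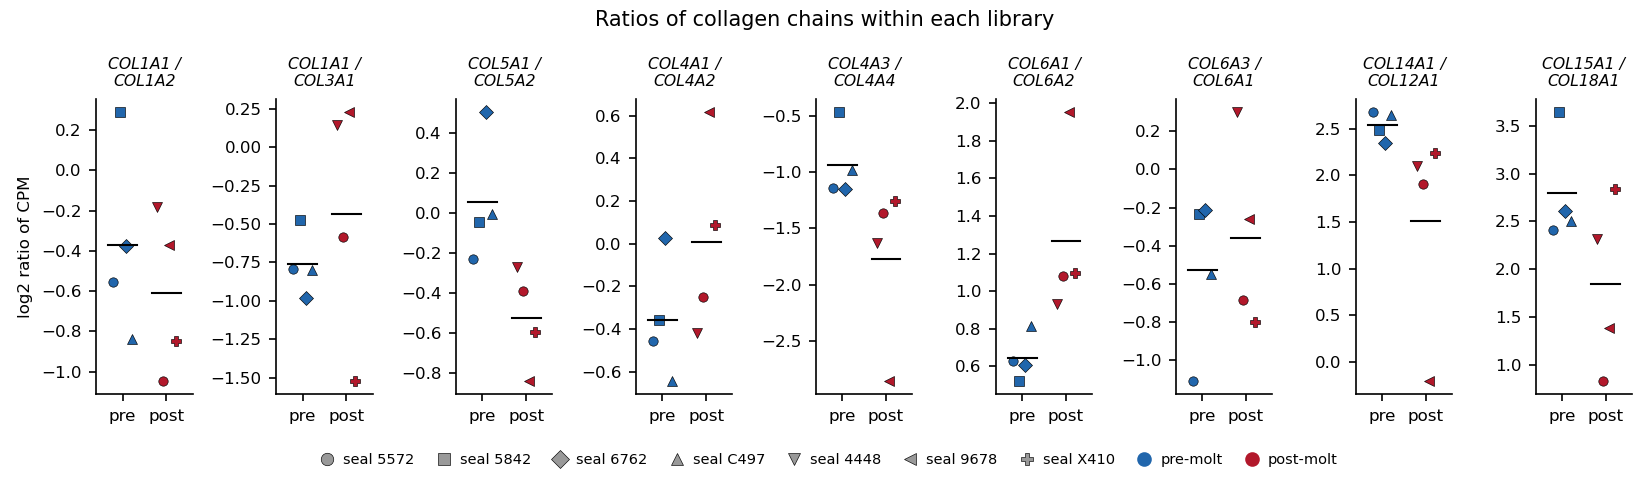
log2 ratio of the CPM of 2 collagen genes in each library (a point for each seal, blue pre-molt and red post-molt, line at the mean of each group) for the 9 pairs tested, each on its own axis. Groups are apart for COL5A1/COL5A2, COL4A3/COL4A4, COL6A1/COL6A2 and COL14A1/COL12A1, with post-molt 9678 the farthest from the pre-molt libraries in each.

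Several collagen genes sit next to each other in the NES genome annotation of RefSeq, although the reads were counted on genes of the Hawaiian monk seal. COL3A1 and COL5A2 are adjacent, and their log2 fold changes were -1.73 and -0.09. The log2 ratio of COL5A2 to COL3A1, chosen after the values were seen and so not tested, was -3.53 ± 0.46 pre-molt and -1.69 ± 0.87 post-molt, and every post-molt library was higher. COL6A2 and COL6A1, also adjacent, were at -1.42 and -0.84, and COL4A4 and COL4A3, with 1 coding gene between them, at -0.59 and -1.26. COL4A1 and COL4A2, whose spans overlap in that annotation, were at -0.03 and -0.38. Reads from overlapping genes cannot be told apart without knowing which strand was counted, which the sources used here do not give.

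Genes that modify, fold, trim, bind and degrade collagen were read from lists chosen by function. Their counts at an unadjusted p below 0.05 stand against 6.22% of all genes lower and 5.20% higher. Their edgeR calls after adjustment stand against 0.133% of all genes called lower and 0.217% called higher. Of 14 tested genes for prolyl and lysyl modification, edgeR called 0, 3 were lower and 1 higher at an unadjusted p below 0.05, and the median log2 fold change was -0.32. P3H4, a partner of the lysyl hydroxylase complex, had a log2 fold change of -1.48 ± 0.43 (edgeR adjusted p = 0.162). P4HB, the disulfide isomerase that is also a subunit of prolyl 4-hydroxylase, averaged 220 ± 16.6 CPM pre-molt and 152 ± 5.32 CPM post-molt, a log2 fold change of -0.53 ± 0.16 (edgeR adjusted p = 0.184, DESeq2 adjusted p = 0.00112). The list summed to 591 to 676 CPM pre-molt and 490 to 553 CPM post-molt, without overlap.

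Folding and export gave the only edgeR call among these lists, where edgeR called 0.217% of all genes higher. Of 12 tested genes, MIA2, which works at the exit sites where procollagen leaves the endoplasmic reticulum, was at 16.3, 13.2, 17.3 and 21.4 CPM pre-molt and at 37.5, 38.7, 37.1 and 47.0 CPM post-molt. It rose in a comparison without overlap (log2 fold change 1.23 ± 0.21, edgeR adjusted p = 0.0333), and with each library left out in turn the log2 fold change was 1.15 to 1.36 and the adjusted p 0.0401 to 0.0901, below 0.05 only without pre-molt C497. FKBP10, a procollagen foldase, had a log2 fold change of -1.12, and 0 genes of the list were lower at an unadjusted p. Of 9 tested genes for trimming and cross-linking, 2 were lower at an unadjusted p and the median was -1.07. PCOLCE, the enhancer of procollagen propeptide cleavage, averaged 23.7 ± 9.67 CPM pre-molt and 8.31 ± 2.63 CPM post-molt, a log2 fold change of -1.51 ± 0.35 (edgeR adjusted p = 0.080, DESeq2 adjusted p = 0.0040). LOXL1, a lysyl oxidase family enzyme, had a log2 fold change of -1.70 ± 0.59.

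The receptors, proteases and inducers had medians near that of all genes. Of 9 tested collagen receptors (median 0.04), 2 were lower at an unadjusted p: MRC2, an endocytic receptor that takes up collagen, at -1.18 ± 0.49, and ITGB1, the shared beta chain of collagen-binding integrins, at -0.46 ± 0.19. Of 7 collagen-degrading proteases (median 0.02), MMP2, a gelatinase made by fibroblasts, had a log2 fold change of -1.25 ± 0.40 (edgeR adjusted p = 0.197) and MMP15, a membrane-bound protease, 0.67 ± 0.29. Of 11 inducers of collagen transcription (median 0.08), TGFBR2, the type II receptor for TGF-beta, averaged 62.0 ± 18.4 CPM pre-molt and 149 ± 36.9 CPM post-molt, a log2 fold change of 1.26 ± 0.25 (edgeR adjusted p = 0.0545, DESeq2 adjusted p = 0.000241). SMAD3, which carries the TGF-beta signal to the nucleus, was at -0.47, and edgeR called 0 of these receptors, proteases and inducers.

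Markers of cell types in or near the muscle were summed beside the collagens. Fibroblast markers summed to 676 to 1426 CPM pre-molt and 998 to 1019 CPM post-molt, and 4 of 13 tested (LUM, THY1, PI16 and FBN1) were lower at an unadjusted p below 0.05, against 6.22% of all genes, with a median log2 fold change of -0.60 and 11 of the 13 below 0. Most of that sum came from GSN (400.4 to 848 CPM pre-molt and 737 to 820 CPM post-molt), which fibers and smooth muscle also express, and without it the sum was 276 to 578 CPM pre-molt and 199.8 to 275 CPM post-molt, with every post-molt library lower. Pre-molt 5842 had the highest fibroblast sum, as it had the highest fibrillar collagen sum. Its sums of adipocyte and macrophage markers were also the highest of the 8 libraries, and those of the other marker lists were not. Adipocyte markers summed to 732 to 940 CPM pre-molt and 440 to 868 CPM post-molt (median of 8 tested, -0.89), and without LPL, their most abundant gene, to 55.6 to 209 CPM and 29.1 to 104 CPM. The leave-outs of GSN, LPL and the other most abundant genes named here were chosen after the values were seen.

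Schwann cell markers summed to 79.2 to 95.6 CPM and 47.1 to 69.5 CPM, without overlap (median of 5 tested, -0.66), and without MBP to 6.22 to 18.0 CPM and 7.69 to 14.1 CPM, which overlapped. Endothelial markers summed to 490 to 630 CPM and 450 to 522 CPM (median of 10 tested, -0.10), pericyte and smooth muscle markers to 161 to 293 CPM and 218 to 365 CPM (median of 10 tested, -0.01), and macrophage markers to 19.9 to 81.1 CPM and 24.3 to 48.8 CPM (median of 8 tested, -0.60). Tendon cell markers summed to 89.4 to 122.7 CPM and 37.7 to 248 CPM, nearly all from EGR1, an early response gene at 195 and 206 CPM in post-molt 4448 and X410, and THBS4, a matrix protein of tendon and muscle. COMP had no read in any library, and TNMD and MKX each had reads in 1 library. THBS4 was at 62.0, 97.2, 48.7 and 51.4 CPM pre-molt and at 33.7, 22.1, 21.5 and 41.1 CPM post-molt, without overlap, with a log2 fold change of -1.13 ± 0.28 (edgeR adjusted p = 0.0956, DESeq2 adjusted p = 0.00991). Markers of skeletal muscle fibers had a median log2 fold change of -0.64 over 9 tested. At an unadjusted p below 0.05, 4 were lower and 1 higher (MB, which encodes myoglobin), against 6.22% and 5.20% of all genes. All together they summed to 185036 to 297703 CPM pre-molt and 172969 to 247474 CPM post-molt, which overlapped. Without MB they summed to 125741 to 215730 CPM pre-molt and 83161 to 115117 CPM post-molt, without overlap. ACTA1 made up much of that sum, at 61059 to 108240 CPM pre-molt and 35010 to 58121 CPM post-molt. A sum without both MB and ACTA1 was not made. The part of these cell types in the collagen values was not tested.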

How the data were processed

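Poly(A)-enriched RNA of 8 longissimus dorsi biopsies of northern elephant seals was sequenced. The authors demultiplexed reads with bcl2fastq 2.20, used STAR for alignment against the genome of the Hawaiian monk seal, and deposited whole-number read counts per gene with no normalization. Reads of 1 species were thus counted on the genes of another, and reads that aligned to several places were left out, which can lower genes with close copies or diverged sequence. Here 7 rows without a gene name (0.0115 to 0.0153% of reads) were set aside. Genes were filtered with filterByExpr (count minimum 10, total minimum 15), scaled with TMM, and tested with edgeR 4.0.16 (quasi-likelihood test, Benjamini-Hochberg adjustment over 14315 genes, 4 against 4 libraries, no covariate, R 4.3.3), with DESeq2 1.42.0 and limma-voom (limma 3.58.1) as alternatives. The standard error of a log2 fold change was its absolute value divided by the square root of the F statistic of edgeR's test. The 95% intervals were built from it, so both are approximate. CPM values are scaled by TMM factors, which were 0.842 to 1.14, and log2 CPM used a prior count of 2. Counts were not divided by gene length. Class sums, class shares and the choice of the most abundant members therefore weigh longer genes more. Values of a gene, a sum, a share or a chain ratio were compared between libraries. No 2 libraries agreed within sampling noise. Chain ratios were compared with exact permutation tests over 70 divisions of the libraries. The tests were checked on simulated counts.

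Values per library were given for the 4 most abundant members of the fibrillar, type IV, type VI and FACIT classes, both multiplexins and every member with an unadjusted p below 0.05, and in each pathway list the genes called and the 2 with the smallest p were named. The collagen genes, the classes and the lists were chosen with earlier results of these data known, so counts over them are descriptions. Alternatives were other scalings, filters and tools, a member minimum of 800 reads, each library left out in turn, both libraries of seal 5572 left out, and sets of libraries left out. All 31 members matched a symbol in the RefSeq annotation of the northern elephant seal, which was used for names and neighbours.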

Additional observations from a re-analysis of the deposited data

Results flagged for a closer look

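In each group of 4, a library was marked where its gap to the nearest other library exceeded Dixon's 95% limit for the range. Of 98 groups of values examined, 13 were marked, where chance marks about 1 in 20 if values are normally distributed. CPM values with 0 in some libraries, as for COL4A6, COL6A6 and COL13A1, are not, so that rate is no exact yardstick here. The values are also not independent because collagen genes shared the same libraries. Pre-molt 5842 stood above its group for COL1A1 (345 CPM, the others 66.6 to 88.5), COL3A1 (479 CPM, the others 128 to 154), COL5A1 (31.4 CPM, the others 12.6 to 15.1), the mean log2 CPM of all tested collagens (3.73, the others 3.38 to 3.44) and the log2 ratio of COL15A1 to COL18A1 (3.64, the others 2.41 to 2.61). Post-molt X410 stood above its group for COL3A1 (159 CPM, the others 31.6 to 40.6) and COL6A6 (2.08 CPM, the others 0 to 0.222).

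Post-molt 9678 stood apart for COL13A1 (4.74 CPM, the others 0 to 0.472), for the log2 ratio of COL6A1 to COL6A2 (1.95, the others 0.93 to 1.10) and for that of COL14A1 to COL12A1 (-0.20, the others 1.90 to 2.24). Seal 5572 stood apart pre-molt for COL5A3 (18.0 CPM, the others 8.51 to 10.1) and for the log2 ratio of COL6A3 to COL6A2 (-0.48, the others 0.27 to 0.39), and post-molt for COL4A6 (0.972 CPM, the others 0 to 0.0793). What sets these libraries apart was not tested.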

How the results depend on the processing

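The adjusted calls depended on the tool and the filter. Collagens called lower numbered 0 with edgeR, 6 with DESeq2 and 4 with edgeR without a filter on low counts (COL1A1, COL6A2, COL14A1 and COL15A1), and 0 were called higher in each. Over all genes, the calls were 19 lower and 31 higher with edgeR, 316 and 335 with DESeq2, 39 and 55 with limma-voom, 97 and 129 without the filter, 2 and 3 without both libraries of seal 5572, and 0 and 0 in each of the fits that left out 2 or 3 libraries (5842 and 9678, or 5842, 4448 and 9678). Without both libraries of seal 5572, 9 collagens were lower and 1 higher at an unadjusted p below 0.05, where 4.8% of all genes were lower. The FACIT median of -0.90 became -0.35 with DESeq2, -0.33 without the filter, -0.28 without the 2 libraries and -0.31 without the 3. DESeq2 and the fit without the filter tested all 31 members, so COL9A1 joined the class and the median fell between COL12A1 and COL9A2. COL12A1 itself was -0.91 with DESeq2 and -0.88 without the filter, and COL9A2 was 0.20 and 0.22. The multiplexin median became -0.50 without the 3 libraries. Near 0, signs changed: COL4A1 was 0.0074 with limma-voom, 0.26 without the 2 and 0.28 without the 3 libraries. COL5A2 was 0.16, 0.51 and 0.43 in those fits and 0.0018 without seal 5572. COL4A2 was 0.0501 without the 2. The cause of the other changes was not tested.

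With each library left out in turn, collagens lower at an unadjusted p numbered 8 to 10 and higher ones 0 to 2, where 4.56 to 6.07% of all genes were lower. In these fits 0 collagens were called, and all genes called numbered 2 to 21 lower and 7 to 28 higher. These fits tested 29 to 31 members, so the genes behind a median were not always those of the main fit. Medians were -0.78 to -0.28 (fibrillar), -0.58 to -0.36 (type IV), -1.69 to -1.15 (type VI), -0.73 to -0.34 (FACIT), -1.01 to -0.71 (multiplexin) and -0.45 to 0.07 (others). COL4A1 was -0.15 to 0.22, COL5A2 -0.30 to 0.38, and the log2 ratio of COL6A3 to COL6A1 differed by -0.057 to 0.31. No paired analysis was possible because only seal 5572 had a library in both groups, so the groups shared fewer than 2 animals. Few reads limit COL4A5, COL4A6, COL6A5, COL13A1, COL21A1 and COL26A1, whose standard errors exceeded 1.5 on the log2 scale.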
